A study of Mus musculus with 4 samples.

Results

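The Cuffdiff table of a mammary gland RNA-Seq experiment lists, beside the annotated genes, many transcribed regions to which no gene name was given. The loci described here are those regions that were longer than 150 bp, had an FPKM above 0 in at least one genotype, and overlapped a row with a gene name or lay within 10 kb of one. Of the 30506 rows of the table, 8023 had no gene name, and 5011 of these met the rule. Poly(A) RNA had been sequenced from mammary glands of 4 mice with a mixed 129SV::FVB/N::C57BL/6 background, 2 miR-21+/+ and 2 miR-21-/-, all labelled as 2 months old. No Cre transgene is named for these mice, so epithelium and stroma of a gland carry the same genotype. FPKM (fragments per kilobase of transcript, scaled to the number of mapped fragments) was given as 1 value per genotype that combines its 2 mice. There is therefore no replicate check behind any difference below, and no test was possible from these values. The p-values of the authors' own comparison were not used. The depth is unknown, and "higher" and "lower" describe the pair of deposited values only. Pairs of FPKM values name miR-21+/+ first and miR-21-/- second, and a change is the log2 ratio of FPKM + 1, miR-21-/- over miR-21+/+.

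Transcribed regions without a name can be several things. RNA polymerase commonly runs past the annotated 3′ end of a gene, divergent transcription starts upstream of many promoters, and long non-coding RNAs, pseudogenes, antigen receptor segments and structural RNAs are missing from some gene lists. Reads of very abundant RNAs, such as ribosomal RNA, can also be placed on genomic fragments that resemble them. The mammary gland of a mouse is a fat pad with a branched epithelium of luminal and myoepithelial cells. It holds lymphocytes and can include a lymph node.

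The sequences of 7 loci carry much of what follows and are printed from the mm9 genome. The first 2 were the most abundant of all the loci. They lay on different chromosomes, and the capitals mark the stretch they share, 104 bases in the first and 105 in the second, which aligned at 97.1% identity on opposite strands. As background from general knowledge, this stretch belongs to a conserved part of the 28S ribosomal RNA, and no ribosomal RNA sequence was aligned with it here.
chr16:17222398-17222609, plus strand, near Rimbp3: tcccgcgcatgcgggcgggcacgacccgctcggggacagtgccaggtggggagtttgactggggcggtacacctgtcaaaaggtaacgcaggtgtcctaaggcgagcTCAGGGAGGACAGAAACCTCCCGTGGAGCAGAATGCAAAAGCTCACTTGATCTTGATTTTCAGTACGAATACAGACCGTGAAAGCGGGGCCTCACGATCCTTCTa
chr6:49186443-49186616, minus strand, near Tra2a: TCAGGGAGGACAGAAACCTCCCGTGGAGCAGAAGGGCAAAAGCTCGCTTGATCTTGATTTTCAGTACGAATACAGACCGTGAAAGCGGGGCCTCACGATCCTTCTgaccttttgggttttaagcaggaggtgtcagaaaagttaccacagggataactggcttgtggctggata

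The next 3 loci lay inside exons of the GENCODE annotation whose gene names the table did not give to them, and all of their bases are exonic (capitals). 7SK is an RNA polymerase III transcript that holds the elongation factor P-TEFb inactive. Trbv1 is a variable segment of the T-cell receptor beta chain, and Igkv2-137 is a variable segment of the immunoglobulin kappa chain. Each is printed on the strand of its gene.
chr9:78023133-78023432, minus strand, 7SK: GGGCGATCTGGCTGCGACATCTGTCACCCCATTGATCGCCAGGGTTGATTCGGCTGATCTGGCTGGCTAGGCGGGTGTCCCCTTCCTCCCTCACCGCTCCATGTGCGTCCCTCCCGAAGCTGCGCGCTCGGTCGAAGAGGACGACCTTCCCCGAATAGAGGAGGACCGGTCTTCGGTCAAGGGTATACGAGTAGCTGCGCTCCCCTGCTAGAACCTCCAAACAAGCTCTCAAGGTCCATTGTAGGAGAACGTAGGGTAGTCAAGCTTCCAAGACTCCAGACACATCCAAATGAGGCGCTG
chr6:40841592-40841867, plus strand, Trbv1: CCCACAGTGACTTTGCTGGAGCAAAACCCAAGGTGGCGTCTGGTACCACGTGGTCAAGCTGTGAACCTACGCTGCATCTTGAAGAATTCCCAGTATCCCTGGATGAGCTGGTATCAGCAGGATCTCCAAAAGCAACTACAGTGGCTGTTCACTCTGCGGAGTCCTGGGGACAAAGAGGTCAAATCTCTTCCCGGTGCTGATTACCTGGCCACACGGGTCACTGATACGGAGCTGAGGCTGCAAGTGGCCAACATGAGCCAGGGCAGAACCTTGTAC
chr6:67505917-67506150, plus strand, Igkv2-137: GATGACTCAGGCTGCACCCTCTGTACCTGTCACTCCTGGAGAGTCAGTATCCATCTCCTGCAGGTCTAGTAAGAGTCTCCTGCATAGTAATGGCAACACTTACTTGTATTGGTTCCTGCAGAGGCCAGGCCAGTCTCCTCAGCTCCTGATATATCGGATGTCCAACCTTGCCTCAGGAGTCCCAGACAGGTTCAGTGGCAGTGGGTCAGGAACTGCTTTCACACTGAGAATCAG

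The last pair lay beside genes that the study was concerned with, upstream of Stat5a, a transcription factor of prolactin signalling, and beyond the 3′ end of the gene that holds miR-21. Both contain simple repeats, marked by capitals: GAAGCACTGT occurs 8 times in the first, and the second has a run of 18 GA units. Searched on both strands, GAAGCACTGT was found in 2 of the 345 loci with coordinates of their own that were at most 300 bp long (0.58%), and GA repeated 10 times in 2 of them (0.58%). The interferon-gamma activated motif TTCNNNGAA, which STAT factors bind, was not among the letters of the first locus and was found in 8.41% of those 345 loci.
chr11:100718694-100718980, plus strand, upstream of Stat5a: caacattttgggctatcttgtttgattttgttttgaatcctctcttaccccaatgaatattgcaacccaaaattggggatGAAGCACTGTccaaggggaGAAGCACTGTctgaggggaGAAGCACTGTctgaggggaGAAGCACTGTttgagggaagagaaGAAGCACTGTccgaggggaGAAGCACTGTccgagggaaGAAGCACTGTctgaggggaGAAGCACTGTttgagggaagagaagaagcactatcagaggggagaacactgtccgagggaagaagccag
chr11:86391651-86391898, minus strand, beyond Vmp1: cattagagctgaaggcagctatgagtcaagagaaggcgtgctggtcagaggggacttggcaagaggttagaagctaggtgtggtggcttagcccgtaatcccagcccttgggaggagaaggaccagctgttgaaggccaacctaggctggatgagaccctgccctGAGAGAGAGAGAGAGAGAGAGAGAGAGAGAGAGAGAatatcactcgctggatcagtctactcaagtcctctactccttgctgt

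The 5011 loci were short and weakly covered. Their median length was 675 bp and their median FPKM, averaged over both genotypes, was 0.761. The average reached 1 FPKM in 1584 loci, 5 FPKM in 154 and 20 FPKM in 34. Of the 5011, 561 carried exactly the locus of a named row, since the table gives overlapping rows 1 merged region, so their own position inside that region is not known. The other 4450 had coordinates outside every named row, 2367 of them on the 5′ side of their nearest named row, 1986 on its 3′ side, and 97 beside a row whose strand was not found. Their median gap to that row was 2462.5 bp.

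In the GENCODE annotation of mm9, 3161 of these 4450 loci (71.0%) were intergenic, 526 lay in introns and 763 (17.1%) touched an exon by at least 1 base. Only 7.57% lay in exons over at least 50% of their length. The exons were of protein-coding genes for 360 loci, of lincRNAs for 169, of processed transcripts for 142 and of pseudogenes for 75. For 517 of the 763 the name of the gene that owns the exon was on no row of the table, and for 175 the exon belonged to the nearest named row itself. The GC content of the loci up to 5 kb had a median of 45.1%, against 45.5% for unnamed loci farther than 10 kb from a named row. It was 47.9% for loci within 1 kb on the 5′ side and 44.3% for those within 1 kb on the 3′ side. The polyadenylation hexamer AATAAA, read on the strand of the neighbour, was present in 46.6% of the loci within 1 kb of its 3′ end, in 43.9% when read on the opposite strand and in 46.3% of windows of the same length 20 kb further out.

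The table as a whole gave the background. The defining genes of the tissue were present in both genotypes: Krt8 (luminal keratin) stood at 119 and 197 FPKM in miR-21+/+ and miR-21-/- glands, and Adipoq (adiponectin, made by fat cells) at 1207 and 853. Of the 23 lymphocyte marker rows at or above 1 FPKM, 19 were 2-fold or more lower in miR-21-/- glands, and the sum over the list went from 324 to 140 FPKM. Muscle markers went the other way, from 1845 to 3041 FPKM with 3 of 22 rows 2-fold higher, and so did myoepithelial markers, from 540 to 862. Erythrocyte markers went from 993 to 409 FPKM (3 of 3 rows 2-fold lower) and brown adipocyte markers from 297 to 153 (4 of 10 lower), and their part in the values of the loci was not tested. The deposited FPKM added up to 759295 and 1175603 over all rows but to 380567 and 355385 over named rows. The 184 unnamed rows of at most 150 bp alone added up to 357210 and 795317. Scaling to equal sums over all rows would shift plain log2 ratios by -0.63, and over named rows by 0.10. The changes of FPKM + 1 would shift by less.

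Of the 1584 loci at or above 1 FPKM, 82 were 2-fold or more higher in miR-21-/- glands (5.18%) and 67 were 2-fold or more lower (4.23%), in all 9.41%. With both genotypes scaled to equal sums over all rows, 19 were higher and 168 lower, and with equal sums over named rows, 90 and 57. The balance of the directions therefore rests on the scaling. Over all 16069 rows at that level the shares were 2.07% and 2.32%, in all 4.38%, and over the 13305 named rows they were 0.924% and 1.28%, in all 2.2%. Over the 996 unnamed loci farther than 10 kb from a named row they were 9.44% and 11.2%, in all 20.7%, and over the 184 unnamed rows of at most 150 bp 17.9% and 12.5%, in all 30.4%. The share for the loci near genes lay between those of named rows and of the other unnamed rows. Their median change was -0.03, beside -0.02 for named rows and -0.07 for distant ones. Among the 149 loci at 2-fold or more, 4 were listed at 0 in miR-21+/+ and 6 at 0 in miR-21-/- glands.

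**Figure D1:**
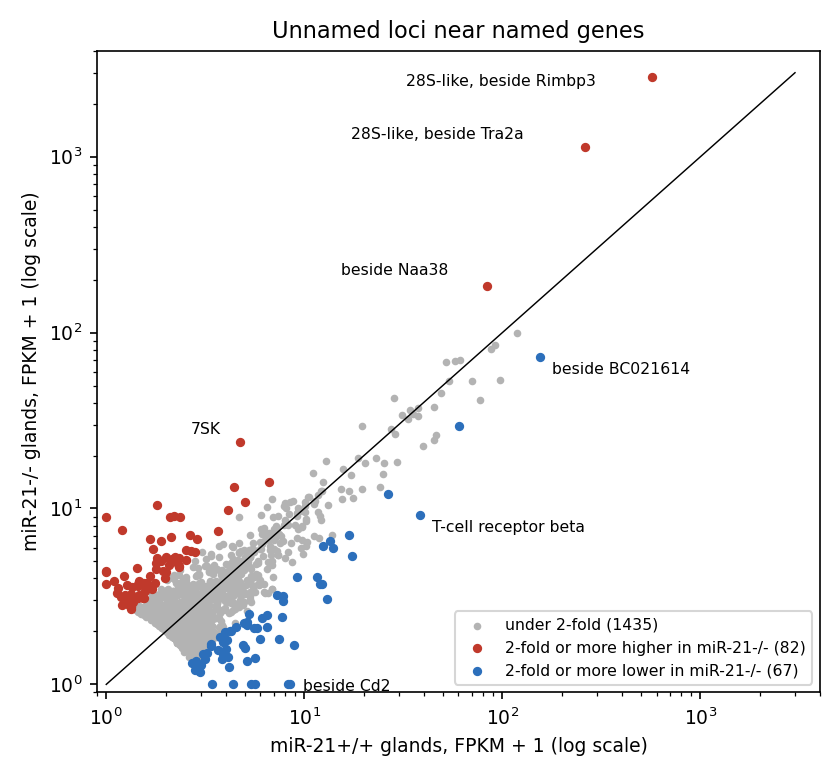
Each point is 1 of the 1584 unnamed loci with a mean of at least 1 FPKM, by its FPKM + 1 in miR-21+/+ glands (horizontal, log scale) and in miR-21-/- glands (vertical, log scale), and the line marks equal values. The 2 loci labelled 28S-like, an identity taken from general knowledge, lie far above the line at the top right. Most loci at 2-fold or more have fewer than 10 FPKM.

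The shares were also compared within ranges of FPKM. Between 5 and 20 FPKM, 14.2% of 120 loci and 1.42% of 5900 named rows reached 2-fold, and at 20 FPKM or more 17.6% of 34 loci and 1.97% of 3501 named rows did. Between 1 and 2 FPKM the shares were closer, 6.43% of 1058 loci and 3.92% of 1328 named rows. Of unnamed loci farther than 10 kb, 18.9% of 507 reached 2-fold between 1 and 2 FPKM. Their shares were 24.7% of 146 between 5 and 20 FPKM and 18% of 50 at 20 FPKM or more. A high share at these levels is thus not particular to loci near genes. The share also differed by length. Among loci with their own coordinates, 43 were higher and 43 lower of the 341 with at most 300 bp (25.2%), but 15 and 15 of the 635 between 300 and 1000 bp (4.72%), and 3 and 3 of the 259 between 1000 and 5000 bp (2.32%). Of the 162 above 5000 bp, 13 were higher and 3 lower (9.88%). Of these 13, 6 are rows of the single region beside Trpc6, and the 3 lower ones are rows of the Trbc2 region, both described below. Rows of 1 region are not independent of each other. The part of length and read sampling in these shares was not tested.

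**Figure D2:**
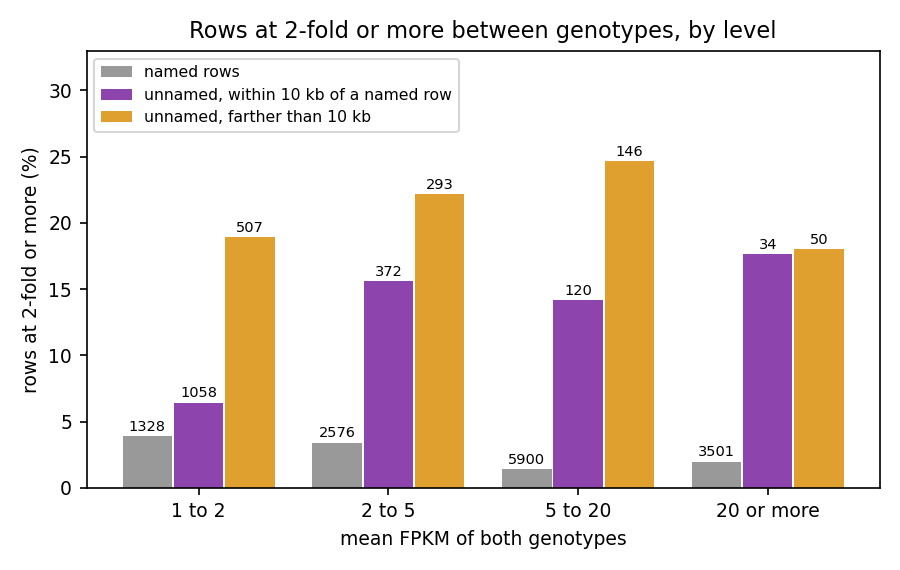
Bars give the percentage of rows at 2-fold or more in either direction, by the mean FPKM of both genotypes, for named rows, for unnamed loci within 10 kb of a named row and for unnamed loci farther away, with the number of rows above each bar. From 2 FPKM up, the loci near genes stand at 14.2% to 17.6%, the named rows at 1.42% to 3.42% and the unnamed loci farther away at 18% to 24.7%.

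The most abundant loci held structural RNA sequence. The locus near Rimbp3 (chr16:17222398-17222609) stood at 567 FPKM in miR-21+/+ glands and at 2826 FPKM in miR-21-/- glands, a change of 2.32, while Rimbp3 itself was near 0 in both (0.019 and 0.010). The locus near Tra2a (chr6:49186443-49186616), a splicing regulator, stood at 259 and 1129 FPKM, a change of 2.12, while Tra2a was at 48.4 and 49.997. The plain ratios were 4.99 and 4.36, beside genes that barely differed. The stretch they share was found at 2 more places in mm9. One lay within Lars2, the mitochondrial leucyl-tRNA synthetase, whose row went from 37.4 to 148 FPKM (1.95), and the other within Gphn, a scaffold protein, whose row of 458115 bp was at 13.4 and 12.4 FPKM. Ribosomal RNA has no poly(A) tail of its own, and how much of it passed the selection in each library was not tested.

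The 7SK locus had the largest positive change among loci of 5 FPKM or more after a row beside Trpc6. It was at 3.75 and 22.8 FPKM (2.32), and the neighbouring C920006O11Rik row was at 3.63 and 3.40. 7SK RNA, like ribosomal RNA, is not polyadenylated. Not every abundant unnamed locus was higher in miR-21-/- glands. The locus in an exon of the pseudogene Rps15-ps2, near Vmn1r26, was at 90.3 and 84.5 FPKM, and the D17H6S56E-5 locus near Vars at 118 and 98.7. Loci near 4930420K17Rik (86.7 and 80.0 FPKM), Oraov1 (60.2 and 68.9) and Taf1b (56.9 and 67.6) and the locus near Vars differed by at most 1.19-fold.

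Some abundant loci had near-identical relatives elsewhere in the genome, and their directions were mixed. The locus in the lincRNA Gm16854, near Naa38, was at 82.6 and 183 FPKM (1.14), and 9 further places matched it at 95% identity or more over at least 90% of its length. A pair near BC021614 was lower instead, at 153 and 71.6 FPKM (-1.08), with 4 further matches for this locus, and at 96.7 and 52.7 FPKM (-0.86), with 0 matches. Near Ankrd5 a locus of 155 bp with 655 such matches stood at 16.4 and 4.39 FPKM (-1.69), although Ankrd5 was at 29.9 and 26.7. Among the 228 loci searched in this way, which were at most 5 kb long and either had 5 FPKM or differed 2-fold, 46 had at least 1 further match. Such matches were found for 5 of 61 loci that were higher and 6 of 61 that were lower. FPKM of a locus with matches elsewhere depends on how reads were shared among the copies and is uncertain. This also holds for the locus near Tra2a, with 2 matches, and the locus near 4930420K17Rik, with 1. Of loci described below, the one near Cdh5 at 14.3 and 11.9 FPKM had 3 matches, and the one near Lipe at 10.2 and 5.97 FPKM had 1.

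Loci near a gene that differed between the genotypes tended to lie on its side. Both the locus and its nearest named row had at least 1 FPKM in 1441 pairs, and across them the 2 changes had a Pearson r of 0.36 and a Spearman rho of 0.29, as a description over loci that share the same libraries. The sign was shared in 852 pairs (59.1%). Where the named row was 2-fold or more lower, 9 of 16 loci were 2-fold or more lower too, all 16 had a negative change, and none was 2-fold higher. Where it was 2-fold or more higher, 5 of 9 loci were 2-fold or more higher, 8 had a positive change and none was 2-fold lower. The exception, named after its value had been seen, was the locus 6186 bp from Pi15, at 2.35 and 0.71 FPKM (-0.97) with the gene at 2.57 and 6.32 (1.04). These pairs rest on few genes, since 8 of the 16 lie beside Crispld1. Of the 124 loci at 2-fold or more in these pairs, 110 lay beside a named row under 2-fold, as did 1416 of all 1441 loci.

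Likeness fell with distance on the 3′ side. Within 100 bp of the 3′ end of the named row, r was 0.73 over 59 loci and the median absolute difference between both changes was 0.14. It was 0.45 over 94 loci at 100 to 1000 bp, 0.44 over 233 at 1 to 5 kb, and 0.26 over 146 at 5 to 10 kb. On the 5′ side there was no such order, with 0.44 over 91 loci within 100 bp, 0.24 over 230, 0.33 over 268 and 0.41 over 117 at 5 to 10 kb. Loci close to a 3′ end were also longer (median 1372 bp, against 327.5 bp at 5 to 10 kb). The median ratio of a locus to its named row in FPKM was 0.20 within 100 bp of the 3′ end and 0.16 over all pairs.

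**Figure D3:**
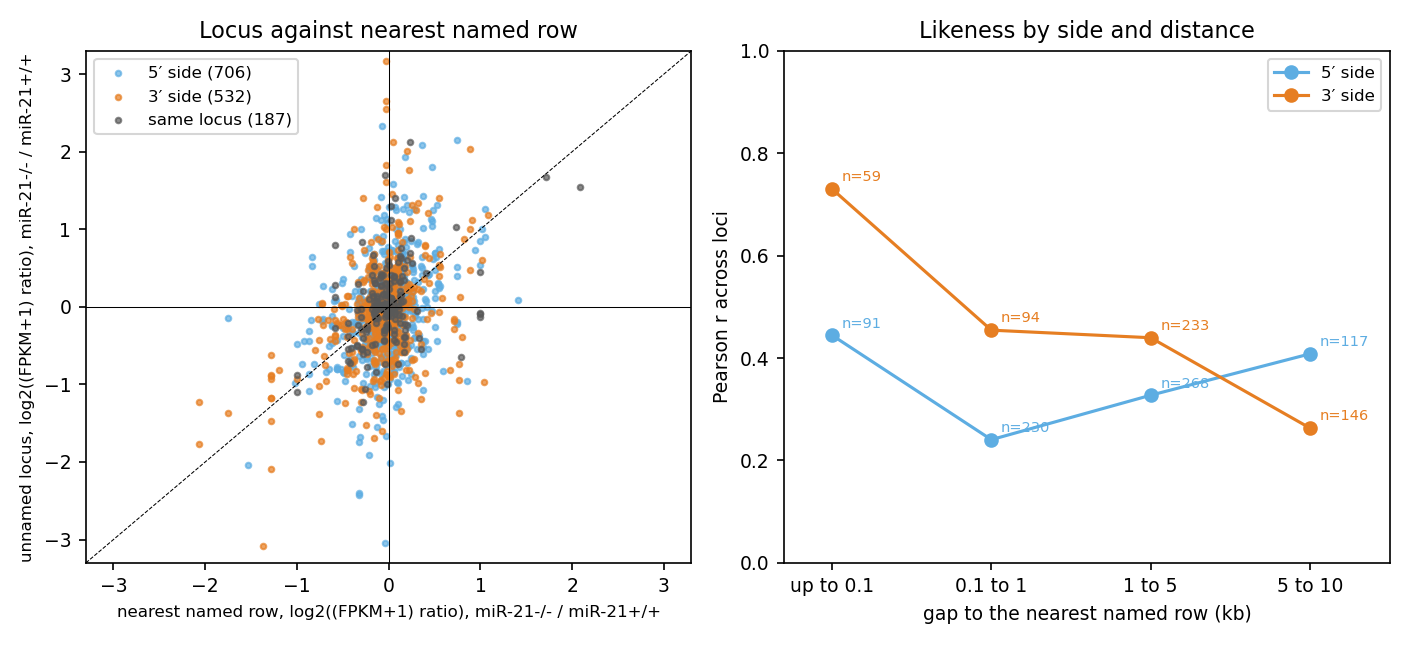
The left panel plots the change of each unnamed locus (log2 ratio of FPKM + 1, miR-21-/- over miR-21+/+) against that of its nearest named row for loci on the 5′ side, on the 3′ side and within the same merged locus, with the dashed line at equal changes. The right panel gives Pearson r across loci by the gap to the named row in kb, and r on the 3′ side goes from 0.73 within 0.1 kb to 0.26 at 5 to 10 kb.

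The clearest set of this kind lay behind Crispld1, which encodes a secreted protein of the cysteine-rich family and was at 21.0 and 8.04 FPKM (-1.28). All 8 loci within 6197 bp beyond the end of its row were lower in miR-21-/- glands. The nearest, 185 bp away (chr1:17759996-17760171), was at 12.01 and 2.05 FPKM (-2.09), and the farthest and longest, of 2331 bp (chr1:17766008-17768338), at 8.16 and 3.06 (-1.17). The remaining 6 had changes from -1.47 to -0.62. Similar pairs were the locus 58 bp behind Samd5, at 7.68 and 3.96 FPKM (-0.81) beside 8.37 and 3.08 for the gene, and the locus 69 bp from Mir142, a microRNA of blood cells, at 5.89 and 2.48 FPKM (-0.99) beside 6.13 and 2.51. The loci near Samd5, Mir142 and Nos1 were named after their values had been seen. In the other direction, the locus 55 bp behind Nos1, neuronal nitric oxide synthase, was at 1.32 and 4.26 FPKM (1.18) with the gene at 0.71 and 2.64 (1.09).

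Progesterone receptor (Pgr), which drives side branching of the ducts, had the largest change among neighbours in these pairs, from 4.71 to 23.3 FPKM (2.09). The unnamed row that shares its locus was at 0.81 and 4.25 FPKM (1.54). Between Trpc6, a calcium channel gene, and Pgr lay a further group, chosen with its values known. Its 20 unnamed rows share 1 locus, chr9:8689067-8752263, which begins 7796 bp beyond the 3′ end of Trpc6 and ends 147285 bp short of Pgr. All 20 were higher in miR-21-/- glands, while Trpc6 was at 2.92 and 2.85 FPKM. In miR-21+/+ glands the 20 rows ranged from 0 to 0.79 FPKM with a median of 0.087, and in miR-21-/- glands from 0.57 to 9.47 with a median of 1.42, so the ranges overlapped between 0.57 and 0.79 FPKM. The 6 rows with a mean of at least 1 FPKM were all 2-fold or more higher, the highest of them at 0.79 and 9.47 FPKM (2.54). All 6 were below 1 FPKM in miR-21+/+ glands and passed the minimum only through their miR-21-/- values. That these 6 were higher was therefore set by the minimum and is no evidence. The 20 rows belong to a single region and are not independent of each other.

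Cacnb3, a calcium channel beta subunit, showed the opposite arrangement, a gene that barely differed beside loci that did. Cacnb3 stood at 12.9 and 10.1 FPKM (-0.32). All 5 loci within 3005 bp of its 5′ end were lower, and 4 of them were 2-fold or more lower. From the gene outward these 4 were at 1.95 and 0.19 FPKM, at 3.17 and 0.25, at 7.85 and 0.68, and at 4.39 FPKM and listed at 0. Upstream of Eps8l1, an actin regulator of epithelial cells at 4.11 and 6.07 FPKM (0.47), 4 of 4 loci in an intron of the non-coding gene Gm15494 were higher instead, the strongest at 0.88 and 5.55 (1.80). Ggt5, a gamma-glutamyl transferase family enzyme of leukotriene metabolism at 8.34 and 16.3 FPKM, had 6 loci on its 3′ side that were all higher and 1 on its 5′ side that was lower. The largest, 1369 bp away, was at 1.20 and 8.01 FPKM (2.04). The Cacnb3, Eps8l1 and Ggt5 groups were picked because several loci of each differed, and no count over them is evidence beyond that.

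**Figure D4:**
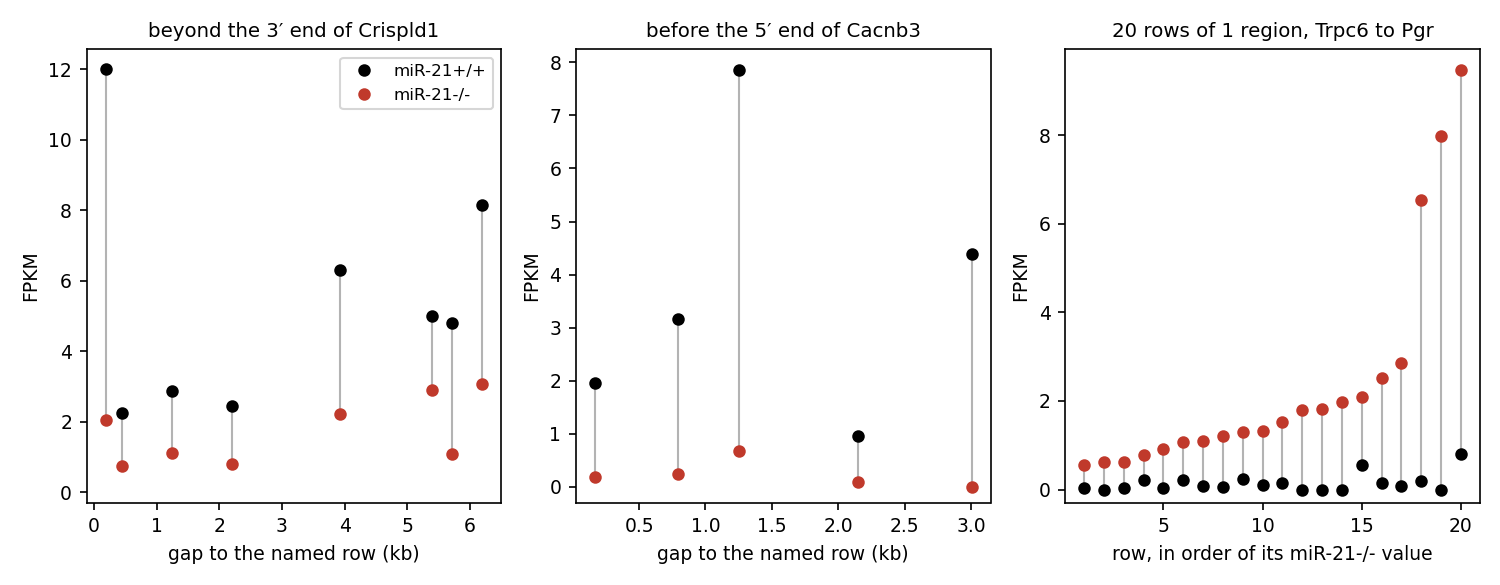
Points give the FPKM of each unnamed locus in miR-21+/+ (black) and miR-21-/- glands (red), joined by a grey line, against the gap in kb to Crispld1 (8 loci, left) and Cacnb3 (5 loci, middle), and for the 20 rows of the region between Trpc6 and Pgr in order of their miR-21-/- value (right). All points for miR-21-/- lie below their partners in the left and middle panels and above them in the right panel.

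Upstream of Stat5a, 3 loci were higher in miR-21-/- glands. The repeat-rich locus printed above, 1684 bp from the gene, was listed at 0 in miR-21+/+ and stood at 3.42 FPKM in miR-21-/- glands. The others, 2249 and 3387 bp away, were at 0.078 and 0.76 FPKM, and at 0 and 0.76. Stat5a itself was at 22.8 and 39.0 FPKM (0.75), and Stat5b, which lies on the other side of these loci, at 20.5 and 25.998 (0.33). These loci were named after their values had been seen.

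The neighbourhood of Mir21 held 5 loci, all lower in miR-21-/- glands and 1 of them at or above 1 FPKM. The table merges Mir21 with its host gene Vmp1 in a single row, which was at 42.5 and 68.2 FPKM (0.67). Mature microRNAs carry no poly(A) tail and are not captured here, and the merged row does not check the deletion. The 3 loci beyond its 3′ end went the other way. The one printed above, 5377 bp away, was at 2.43 and 0.94 FPKM (-0.82), the next, 3552 bp away, at 0.72 and 0.22 (-0.50), and the last, 6636 bp away, at 0.87 and 0.33 (-0.50). None reached 2-fold on the scale of FPKM + 1. Of the 2 loci beside other genes of this list, the one near Tbx2 was at 0.81 and 0.54 FPKM (-0.24) and the one near Heatr6 at 0.72 and 0.54 (-0.16).

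Antigen receptor sequence was lower throughout. The 6 loci that touched exons of T-cell receptor or immunoglobulin segments all had a mean of at least 1 FPKM, and all were lower in miR-21-/- glands. Of them 5 were 2-fold or more lower, against 4.23% of all loci at that level. Except for the most abundant of them, each was below 1 FPKM in miR-21-/- glands and passed the minimum only through its miR-21+/+ value. The comparison with 4.23% is therefore no support. A set of 3 rows shares the locus chr6:41483768-41498353, which holds the constant segment Trbc2 of the T-cell receptor beta chain. These 3 rows are 3 of the 5, belong to a single region and are not independent of each other. They were at 37.3 and 8.16 FPKM (-2.06), at 4.04 and 0.61 (-1.65), and at 3.03 and 0.59 (-1.34), while the nearest named row, the trypsinogen gene Prss2, was at 0.029 and 0.031. A locus of 657 bp that touches the exon of the diversity segment Trbd1 was at 1.77 and 0.96 (-0.50). The locus within Trbv1 was at 4.996 and 0.81 (-1.72), and the locus within Igkv2-137 was at 4.65 FPKM in miR-21+/+ and listed at 0 in miR-21-/- glands. The Igkv2-137 locus had 1 near-identical match elsewhere in the genome, so its FPKM is uncertain. The nearest named rows of these 6 loci were at 0.031 FPKM or less in both genotypes.

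Loci beside Cd8a and beside 3 chosen lymphocyte genes were lower, as were these genes. Cd8a, the alpha chain of the co-receptor of cytotoxic T cells, was the only gene of the lymphocyte list with loci beside it, and all 7 were lower. The highest (chr6:71318063-71318337, 5083 bp before the gene) was at 6.47 and 0.82 FPKM (-2.04), beside 4.14 and 0.78 for Cd8a itself (-1.53), and the other 6 were below 1 FPKM on average. Cd2, Btla and H2-Ob were chosen after their values had been seen. All 14 loci beside them were lower too, and this count is no evidence beyond that choice. Of these, 5 had at least 1 FPKM and 4 were 2-fold or more lower. The smallest change was -0.14, for a locus 7929 bp before Btla, against -1.76 for Btla itself. The locus 8428 bp behind Cd2, a T-cell adhesion molecule at 6.75 and 2.00 FPKM, was at 7.49 FPKM and listed at 0. Its nearest gene in GENCODE was Gm12490, 5793 bp away. Behind Btla, an inhibitory receptor of lymphocytes at 4.57 and 0.65 FPKM, a locus was at 5.12 and 1.38 (-1.36). H2-Ob, an antigen presentation gene of B cells, was at 7.19 and 0.96 FPKM. Beyond its row a locus was at 2.67 and 0.57 (-1.22), and another was at 2.41 FPKM and listed at 0. GENCODE places the first in an intron of H2-Ob and the second 659 bp beyond its 3′ end. In these bulk samples fewer lymphocytes and less RNA per lymphocyte cannot be told apart, and neither can the amount of lymph node in the pooled glands.

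**Figure D5:**
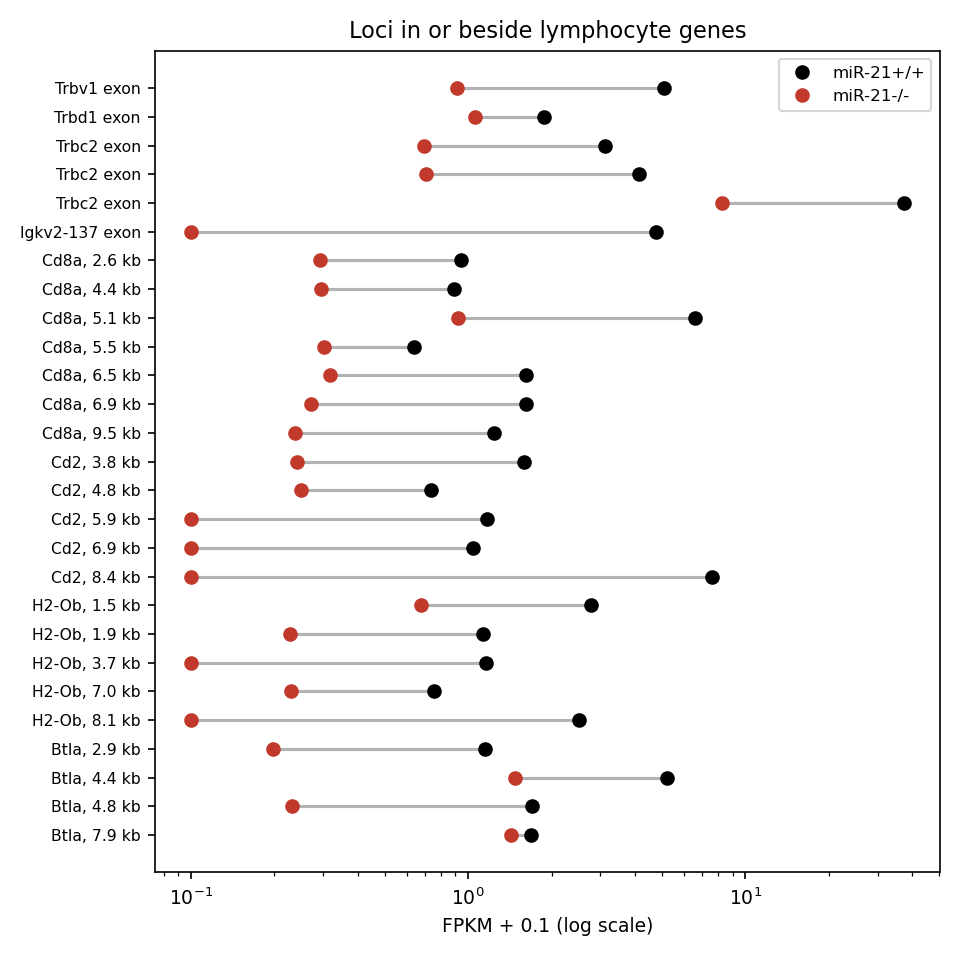
Each line joins the FPKM + 0.1 (log scale) of 1 unnamed locus in miR-21+/+ (black) and miR-21-/- glands (red), for all 6 loci in antigen receptor exons and all 21 loci nearest to Cd8a, Cd2, H2-Ob and Btla, with the gap to the gene in kb. All 27 are lower in miR-21-/- glands, and 6 are listed at 0 there. Cd2, H2-Ob and Btla were chosen after their values had been seen, and 3 of the 6 receptor loci are rows of 1 region.

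Loci beside the other marker lists were few. Beside luminal genes 5 of 13 loci had at least 1 FPKM, with a median change of 0.31 beside 0.53 for the genes, and the row of Pgr was the only 1 at 2-fold. After scaling to equal sums over all rows the median of the same 5 was -0.07. The largest of the rest was a locus 381 bp before Krt18, at 0.88 and 1.70 FPKM (0.52), and a locus within the Prlr gene (prolactin receptor) was at 5.22 and 6.71 (0.31). A pair of rows in the merged locus of Foxa1, a transcription factor of luminal cells, was at 1.12 and 1.59 FPKM (0.29) and at 2.29 and 1.80 (-0.23), with the gene at 29.5 and 23.2 (-0.34). Both loci beside myoepithelial genes were at that level, with changes of 1.03 in the merged locus of Krt14 and Krt16 (0.71 and 2.49 FPKM) and 0.24 near Cnn1 (calponin).

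Beside white adipocyte genes 6 of 12 loci had at least 1 FPKM, with a median of -0.19 beside -0.42 for the genes and none at 2-fold. A pair upstream of Lipe, hormone-sensitive lipase, was the lowest of them, at 10.2 and 5.97 FPKM (-0.68) and at 5.89 and 4.01 (-0.46), and 3 rows of 1 locus beside Agpat2 ranged from -0.25 to 0.23. The locus 1260 bp beyond Fasn, fatty acid synthase, was at 1.03 and 1.23 FPKM (0.14), with a change of -0.45 for the gene. Beside milk genes 2 of 5 loci were counted, both near Plin2, a lipid droplet protein, at 11.9 and 17.7 FPKM (0.54) and at 1.06 and 1.19 (0.09). Their median of 0.32 was -0.13 after scaling to equal sums over all rows. Among 4 loci beside endothelial genes, 3 near Cdh5 (the endothelial cadherin, at 43.8 and 47.3 FPKM) were counted. They were at 14.3 and 11.9 FPKM (-0.24), at 0.34 and 1.80 (1.07) and at 0.88 and 1.76 (0.55), with a median of 0.55 that was 0.19 for the same 3 loci after scaling to equal sums over all rows. The single counted loci beside Col1a1 (-0.60, of 10 beside matrix genes) and Prdm16 (-0.01, of 3 beside brown adipocyte genes) did not reach 2-fold. The 1 locus beside a skeletal muscle gene was below 1 FPKM, and no locus lay beside a macrophage or erythrocyte gene of the lists.

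Some loci stood apart from a well expressed neighbour. Near Cnot8, a deadenylase subunit at 23.1 and 23.9 FPKM, a locus 9661 bp upstream was at 3.41 and 12.3 FPKM (1.59). Upstream of Msrb3, a methionine sulfoxide reductase at 29.0 and 30.6, a locus was at 3.13 and 8.77 (1.24), and near 9430015G10Rik one was at 5.65 and 13.1 (1.08). Lower loci of this kind lay near Rhbdd2, at 10.997 and 2.74 FPKM (-1.68), near the clock repressor gene Nr1d1, at 10.6 and 3.10 (-1.51), near Hnrnpd, an RNA-binding protein, at 15.8 and 6.04 (-1.26), and near the interleukin 17 receptor gene Il17ra, at 12.7 and 6.10 (-0.95), where the gene itself was at 7.54 and 14.4. The locus near Rhbdd2 had 33 near-identical matches in the genome, and those near Il17ra and 9430015G10Rik had 1 each. The remaining loci with a large change were near Pank1 (11.3 and 2.70 FPKM, -1.73), Bbc3 (25.4 and 11.1, -1.13), Dram2 (12.9 and 4.98, -1.22) and Ass1 (3.70 and 8.002, 0.94). These loci were 151 to 495 bp long, except the one near Ass1, of 76519 bp.

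Values near the limits of the rule were as follows. The 9 loci of 151 to 160 bp had a median change of -0.80, and the 16 unnamed rows of 141 to 150 bp, just outside, one of 0.29. The 21 counted loci between 9.5 and 10 kb from a named row had a median change of -0.13, and the 26 unnamed rows between 10 and 10.5 kb one of 0.62.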

How the data were processed

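The authors purified poly(A) RNA from mammary glands of 2 miR-21+/+ and 2 miR-21-/- mice, processed single-end reads with CASAVA, aligned them with TopHat to mm9 and ran Cufflinks and Cuffdiff. Program versions and the gene annotation are not given in the sources used here. The deposited table holds FPKM as 1 value per genotype, made by the authors from both mice. Its other columns, a status, a log2 fold change, a test statistic, p-values and q-values, hold the authors' own comparison, and of these only the status was used.

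Starts, which count from 0 in the table, are printed counting from 1. The nearest named row had the smallest gap, then the longest overlap, then the highest FPKM. Changes were log2 ratios of FPKM + 1, and rows with a mean of both genotypes at or above 1 FPKM were counted at a fold of 2 or more. Places came from GENCODE M1 and sequences from mm9, read with pysam 0.24.0, and matches were found with blastn 2.17.0. Python 3.11.15 with pandas 2.3.3 was used, and the steps were tested on simulated data.

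Of loci with a mean of at least 5 FPKM, the text names the 10 highest and the 10 lowest by change, the 10 most abundant, and in each direction the 5 whose change differed most from that of a nearest named row at or above 5 FPKM. A locus that this rule takes is not reported here. All counted loci beside the genes of 12 marker lists, and every locus near Mir21, were added, and other loci are said to have been chosen after their values were seen. The lists were for luminal epithelium, milk, myoepithelium, white and brown adipocytes, skeletal muscle, lymphocytes, matrix, endothelium, macrophages, erythrocytes and the neighbourhood of Mir21. The loci, the lists and the thresholds were chosen with earlier results of these data known. A limma test had been planned in case values per mouse were given, and was not run. Other pseudocounts, minimums, folds, scalings, lengths and distances were tried, and a length above 300 bp and a count of 1 row per locus were added after the data had been seen.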

Additional observations from a re-analysis of the deposited data

How the results depend on the processing

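No paired analysis was possible because each genotype has a single pooled value, and no mouse could be left out. Counts of loci at 2-fold or more depended on the scale and on the minimum. The 82 higher and 67 lower loci became 157 and 174 with a pseudocount of 0.1, 172 and 194 with plain ratios, 9 and 14 from 5 FPKM, 27 and 30 with at least 1 FPKM in each genotype, 175 and 217 at 1.5-fold, and 21 and 20 at 3-fold. They became 90 and 57 with both columns scaled to equal sums over named rows, and 19 and 168 over all rows. Above 500 bp they were 26 and 13, and above 300 bp (chosen after seeing the data) 39 and 24. With 1 row per locus, also chosen after seeing the data, they were 75 and 64. Within 5 kb of a named row, 39 were lower. Equal sums over all rows moved the median change to -0.48 for the loci, -0.57 for named rows and -0.56 for distant unnamed rows, and the medians beside white adipocyte and endothelial genes to -0.78 and -0.31. There 4 of 6 and 2 of 3 loci still had 1 FPKM, and with the loci held fixed (chosen after seeing the data) these medians were -0.51 and 0.19. For fixed loci, equal sums over named rows gave medians of 0.40 beside luminal, 0.39 beside milk, -0.13 beside white adipocyte and 0.62 beside endothelial genes. With a pseudocount of 0.1 the locus beside Cd8a was at -2.83, and the median absolute difference between a locus and its nearest named row was 0.40, against 0.27. With at least 5 FPKM in both rows of a pair, Spearman rho was 0.41 over 108 pairs, and with exons required over 50% of a locus 7.57% lay in one. Of 200 values for the 50 loci named by rule, 178 moved by at most 1.5-fold, 22 by more, and none of those at 2-fold or more changed sign. Depth is unknown, so the precision of loci near 1 FPKM could not be given.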
